A study of Danio rerio with 40 samples.

Results

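The comparison described here is that of zebrafish larvae kept in calcitriol and of larvae kept in ethanol vehicle, both collected at 6 days post fertilisation (dpf), across all genes of the deposited count table. It rests on 10 of the 40 libraries of the series, 5 from each group, chosen by their labels. Segrest wild-type embryos were kept in sets of 25 to 30 in medium with 0.003% phenylthiourea, an inhibitor of pigment formation, which both groups received. One group was given 300 pM calcitriol (1α,25-dihydroxyvitamin D3, the active hormone form of vitamin D) from 24 hours post fertilisation, and the other the same volume of ethanol, with the medium changed every 24 h. The labels mention, too, larvae of 6 dpf exposed for 24 h without tying any library to them, and the main protocol is assumed here for all 10 libraries. Whole larvae were pooled within a set and their poly-A RNA was sequenced. The labels do not say whether the 5 sets of a group came from separate clutches, so p-values measure the spread between these sets only. In whole-larva RNA, fewer cells of a type and less RNA per cell cannot be told apart.

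Calcitriol acts through the vitamin D receptor, a nuclear receptor that pairs with a retinoid X receptor on DNA, and zebrafish carry the duplicates vdra and vdrb. Its best known target is cyp24a1, which encodes the mitochondrial 24-hydroxylase that inactivates calcitriol. In vertebrates the hormone is known chiefly for its control of calcium and phosphate uptake by gut, kidney, gill and skin and of bone mineral. At 6 dpf the zebrafish larva has a working liver, pancreas and gut and is living on the last of its yolk.

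Counts summed to between 158074655 and 214502251 in 8 of the 10 libraries and to 67381758 in vehicle library 1 and 67235165 in calcitriol library 5, and 13641 to 13931 of the 14267 listed genes had a count. Of the 14267 genes, 13505 were tested with edgeR's quasi-likelihood test, and levels are given as CPM, counts scaled to a common library size with TMM factors. At a Benjamini-Hochberg adjusted p under 0.05, 1444 genes were called (10.7% of those tested). Of these, 590 were higher with calcitriol (4.37%) and 854 lower (6.32%). The median absolute log2 fold change of the called genes was 0.56, and 63 genes rose and 183 fell at least 2-fold. All 5 libraries of one group lay above all 5 of the other for 1345 genes (9.96%), with the treated libraries above for 449 (3.32%) and below for 896 (6.63%). Without the shallow vehicle library 1 and calcitriol library 5, 3532 of 13515 genes were called (26.1%), 1638 higher (12.1%) and 1894 lower (14.0%), and 1437 of the 1444 calls were among them with the same direction. Calcitriol library 5 was the highest of its group in 129 of the 183 genes that fell at least 2-fold and the lowest in 43 of the 63 that rose as much, so for most of these genes it was the treated library nearest to the vehicle group. Without any scaling factor the median of all tested genes was 0.14 instead of 0.02 on the log2 scale, and 1735 genes were called higher and 609 lower. Directions are therefore given relative to the bulk of genes, and where the balance of calls in a list turned without scaling this is said. No called gene given below turned, but the medians of 7 lists did, given here with and without factors. These were the lists of vitamin D (-0.08 and 0.03), the growth axis (-0.00189 and 0.11), cytosolic ribosomal proteins (-0.07 and 0.04), the respiratory chain (-0.04 and 0.08), the clock (-0.02 and 0.09), lens crystallins (-0.02 and 0.10) and retinoids (-0.02 and 0.10).

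**Figure D1:**
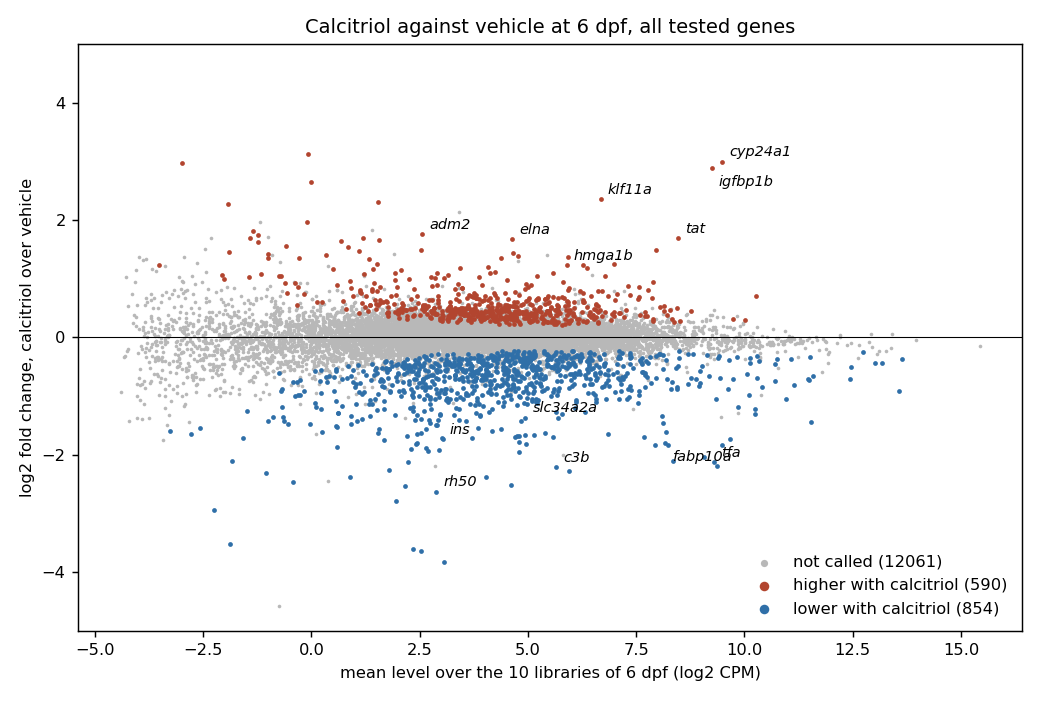
Log2 fold change of calcitriol over vehicle at 6 dpf (vertical axis) against the mean level of each of the 13505 tested genes over the 10 libraries (horizontal axis, log2 CPM). Red points are the 590 genes called higher, blue points the 854 called lower and grey points the rest; the named genes with the largest changes are labelled, and the largest falls outnumber the largest rises.

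Among the 14 tested genes of vitamin D handling and reception, 1 rose and 3 fell, with a median log2 fold change of -0.08 against 0.02 for all genes. The catabolic enzyme gene cyp24a1 (chromosome 6, 55694804 to 55705674 over its 5 listed exons, in coordinates of the deposited exon table) stood at 98.5, 272, 153, 146 and 139.9 CPM in vehicle libraries 1 to 5 and 1292, 1095, 1659.8, 1689 and 634 CPM in calcitriol libraries 1 to 5. The groups did not overlap, and calcitriol library 5 was the lowest of its group and vehicle library 2 the highest of the other. Its level was 7.97-fold higher with calcitriol (log2 fold change 2.99 ± 0.31 (SE), adjusted p = 0.000159). The receptor genes stood at 9.51 to 33.6 CPM in vehicle and 9.13 to 22.3 CPM in calcitriol libraries for vdra and at 20.4 to 58.3 and 17.9 to 34.7 CPM for vdrb, and the groups overlapped. Neither passed the test, with log2 fold changes of -0.50 ± 0.29 (SE; adjusted p = 0.332) and -0.58 ± 0.24 (SE; adjusted p = 0.1598). Without the 2 shallow libraries both were called lower, vdra at -0.55 (adjusted p = 0.00169) and vdrb at -0.64 (adjusted p = 0.0004299). The tested retinoid X receptor genes lay between -0.17 (rxraa) and 0.18 (rxrab) and none was called. The list gave 1 higher and 5 lower without the 2 shallow libraries.

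The 3 members that fell were cyp3a65, gc and dhcr7. The gene cyp3a65 encodes a liver and gut P450 of the family whose human member CYP3A4 can hydroxylate vitamin D. It stood at 762 to 1258 CPM in vehicle and 493 to 599 CPM in calcitriol libraries (log2 fold change -0.89 ± 0.12 (SE), adjusted p = 0.000691). The gene gc, for the plasma carrier of vitamin D, fell as well (log2 fold change -0.94 ± 0.24 (SE), adjusted p = 0.0279). The gene dhcr7, whose enzyme turns the precursor 7-dehydrocholesterol into cholesterol, stood at 38.6 to 56.04 and 23.9 to 29.5 CPM (log2 fold change -0.76 ± 0.11 (SE), adjusted p = 0.00106).

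Of 30 tested genes of calcium and phosphate transport and its hormones, 5 fell and 1 rose (median -0.12). The largest fall in level among transporters was that of slc34a2a, a sodium-dependent phosphate carrier. It stood at 51.1, 42.8, 42.7, 40.1 and 45.5 CPM in vehicle libraries 1 to 5 and 15.01, 18.5, 16.6, 16.9 and 18.3 CPM in calcitriol libraries 1 to 5. Every calcitriol library was below every vehicle library, by 2.58-fold on average (log2 fold change -1.37 ± 0.09 (SE), adjusted p = 1.55e-05). Its paralog slc34a2b was not called (log2 fold change 0.45, adjusted p = 0.299), nor was the epithelial calcium channel gene trpv6 (log2 fold change -0.15, adjusted p = 0.4303), while the sodium-calcium exchanger gene slc8a1b fell by 0.31 on the log2 scale (adjusted p = 0.02995).

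Stanniocalcins are hormones that lower calcium uptake in fish. The stanniocalcin 2 gene stc2a (stc2 in the file) stood at 15.4, 17.6, 15.2, 14.4 and 14.6 CPM in vehicle libraries 1 to 5 and 5.401, 5.699, 5.24, 6.44 and 5.88 CPM in calcitriol libraries 1 to 5. The groups lay wholly apart, with a level 2.67-fold lower in the treated larvae (log2 fold change -1.41 ± 0.09 (SE), adjusted p = 1.55e-05). Stanniocalcin 1-like stc1l also fell (log2 fold change -0.75 ± 0.11 (SE), adjusted p = 0.00165), whereas stc1, at a vehicle mean of 0.688 CPM, was not called (log2 fold change 0.12, adjusted p = 0.765). The parathyroid hormone gene pth1a rose (log2 fold change 1.08, adjusted p = 0.0318) at a vehicle mean of only 0.285 CPM. Its call was kept in 4 of the 10 fits that left out 1 library (adjusted p up to 0.0906). The gene pth2, also counted in this list, fell (log2 fold change -0.52, adjusted p = 0.0308), and whether it acts on calcium or phosphate was not tested. The phosphate-lowering hormone gene fgf23 was at 0.479 CPM in vehicle and was not called (log2 fold change -0.34, adjusted p = 0.5803). Leaving out the shallow libraries gave 3 higher and 10 lower in the list. The count of falls was 3 without vehicle library 2, 3, 4 or 5 or calcitriol library 1, 3 or 4, and 9 without calcitriol library 5.

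Among 36 genes of bone, cartilage and mineral matrix, 6 rose and none fell, at a median of 0.00. The elastin gene elna (chromosome 15, 163625 to 192824 over its 21 listed exons) stood at 13.6, 8.69, 11.2, 12.96 and 13.2 CPM in vehicle libraries 1 to 5 and 32.5, 31.2, 47.9, 42.7 and 33.4 CPM in calcitriol libraries 1 to 5. All treated libraries were above all vehicle libraries, 3.18-fold on average (log2 fold change 1.67 ± 0.16 (SE), adjusted p = 0.000109). The gene mgp, for matrix Gla protein, an inhibitor of soft-tissue mineralisation, rose 2.78-fold from a vehicle mean of 1.14 CPM (log2 fold change 1.48 ± 0.19 (SE), adjusted p = 0.0006002). The hypertrophic cartilage and bone collagen gene col10a1 rose too (log2 fold change 0.73 ± 0.13 (SE), adjusted p = 0.00478), as did spp1 (osteopontin, zgc:111821 in the file, 0.90), the osteoclast protease gene ctsk (0.55) and matn3a (0.36). The major bone collagens were close to the median of all genes, with log2 fold changes of 0.03 for col1a1a and -0.03 for col1a2. Cartilage genes that did not pass the test included col2a1a at -0.25 (adjusted p = 0.403) and epyc at -0.58 (adjusted p = 0.127). Without the shallow libraries the list gave 9 higher and 9 lower, col2a1a and epyc among the falls.

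**Figure D2:**
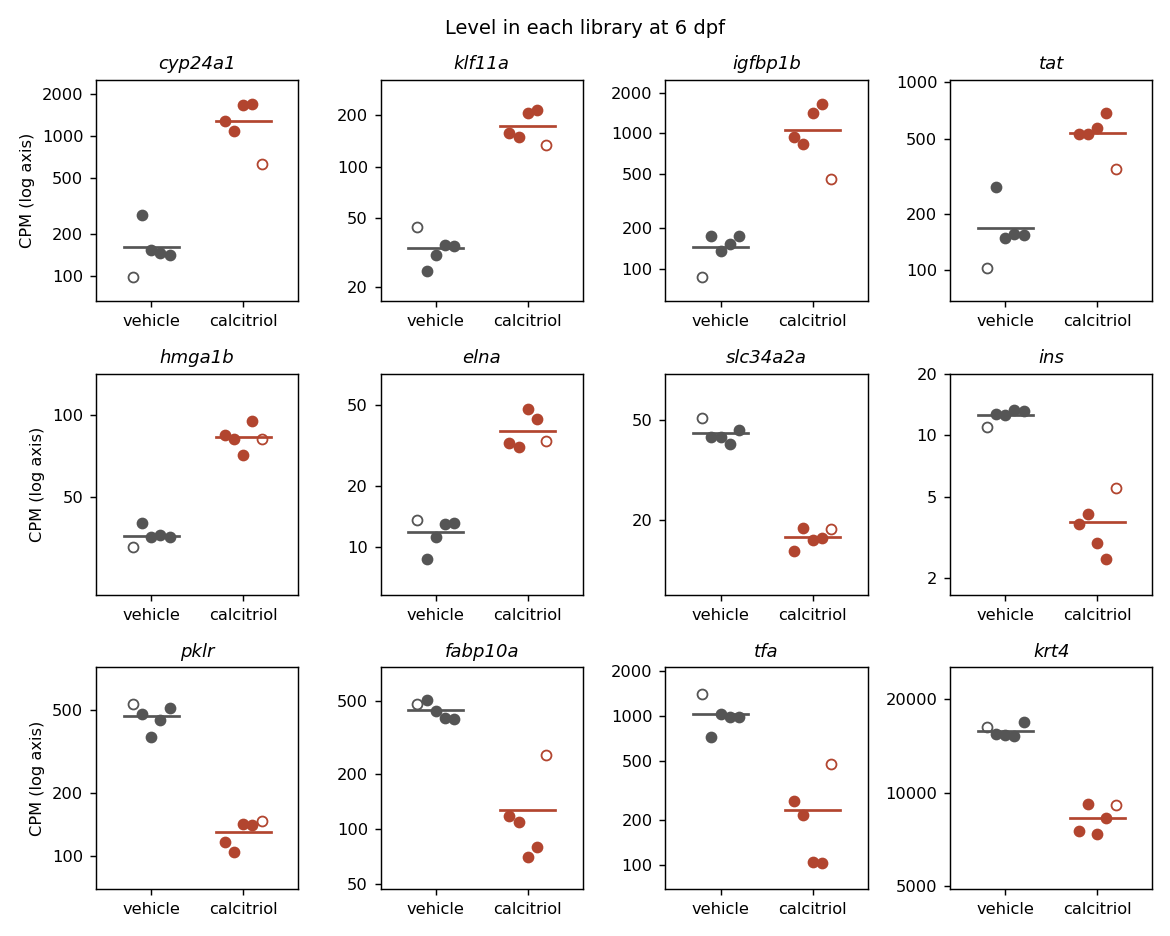
Level of 12 genes in each 6 dpf library (CPM, log axis), vehicle in grey and calcitriol in red, with the mean of each group as a line. Open circles are the shallow vehicle library 1 and calcitriol library 5. In all 12 panels the groups do not overlap, and for cyp24a1, klf11a, igfbp1b, tat, ins, pklr, fabp10a and tfa the open calcitriol circle lies nearest to the vehicle group.

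Of 45 tested genes listed as fasting, insulin-repressed and glucocorticoid target genes, 11 rose and 5 fell (median 0.15). The Krüppel-like repressor gene klf11a stood at 44.4, 24.7, 30.5, 34.9 and 34.7 CPM in vehicle libraries 1 to 5 and 157, 148, 205, 213 and 134 CPM in calcitriol libraries 1 to 5. Its groups did not overlap and the level was 5.11-fold higher (log2 fold change 2.35 ± 0.18 (SE), adjusted p = 2.63e-05), and its duplicate klf11b rose as well (log2 fold change 0.90, adjusted p = 0.00527). The gene igfbp1b encodes a secreted binding protein that restrains insulin-like growth factors. It stood at 86.3, 175, 135, 154 and 176 CPM in vehicle libraries 1 to 5 and 946, 831, 1415, 1663 and 464 CPM in calcitriol libraries 1 to 5. The rise was 7.402-fold (log2 fold change 2.89 ± 0.32 (SE), adjusted p = 0.000236), and igfbp1a rose 2.81-fold (log2 fold change 1.49 ± 0.22 (SE), adjusted p = 0.00109). The tyrosine aminotransferase gene tat (chromosome 18, 12640430 to 12651191 over 5 listed exons), a classic glucocorticoid target of liver, stood at 102, 278, 148, 156 and 154 CPM in vehicle libraries 1 to 5 and 533, 534, 575, 689 and 344 CPM in calcitriol libraries 1 to 5. Vehicle library 2 was the highest vehicle library and calcitriol library 5 the lowest treated one, with no overlap (log2 fold change 1.69 ± 0.24 (SE), adjusted p = 0.00107).

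Further rises in this list were pfkfb3 (regulation of glycolysis; log2 fold change 1.24 ± 0.23 (SE), adjusted p = 0.00511), foxo1b (log2 fold change 1.02, adjusted p = 0.0162), the stress-induced mTORC1 inhibitor gene sesn2 (log2 fold change 1.01, adjusted p = 0.01201) and the muscle ubiquitin ligase genes trim63b (zgc:56376 in the file, 0.80) and trim63a (zgc:86757 in the file, 0.94). The 5 that fell were pck2 (-1.05), for mitochondrial phosphoenolpyruvate carboxykinase, foxo3a (log2 fold change -0.92 ± 0.08 (SE), adjusted p = 8.47e-05), socs1a (socs1 in the file, -0.85), sesn1 (-0.56) and pfkfb4a (pfkfb4 in the file, -0.29). The count of falls was 3 without vehicle library 2, 3 or 4 or calcitriol library 4 and 9 without vehicle library 1, and without both shallow libraries the list gave 18 higher and 12 lower.

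Of 18 tested hormone and endocrine genes of the pancreas and gut, 5 fell and 1 rose (median -0.18). The insulin gene ins (chromosome 5, 39454968 to 39457898 over 3 listed exons) stood at 10.98, 12.7, 12.6, 13.4 and 13.2 CPM in vehicle libraries 1 to 5 and 3.69, 4.11, 2.98, 2.48 and 5.54 CPM in calcitriol libraries 1 to 5. The vehicle libraries lay close together, every treated library was below them, and calcitriol library 5 was the highest of the treated ones. The level was 3.33-fold lower (log2 fold change -1.74 ± 0.18 (SE), adjusted p = 0.000189). The glucagon gene gcga fell 2.195-fold (log2 fold change -1.13 ± 0.17 (SE), adjusted p = 0.00134) and the somatostatin gene sst1.1 fell 1.54-fold with overlapping groups (log2 fold change -0.62 ± 0.13 (SE), adjusted p = 0.00935). The incretin gene gip stood at 3482 to 5894 CPM in vehicle and 773 to 3754 CPM in calcitriol libraries, with overlap (log2 fold change -1.45 ± 0.38 (SE), adjusted p = 0.0327), and sst2 also fell (-1.06). Counts of gip made up most of the sum over this list, which was 4212 to 6585 CPM in the vehicle libraries and 1456 to 4418 CPM in the calcitriol libraries. Without the shallow libraries the list gave 2 higher and 8 lower. Of transcription factor genes, pdx1 (-0.09), isl1 (0.09) and neurod (0.12) were near the median and not called, and insm1a rose by 0.31 on the log2 scale (adjusted p = 0.0202). In which cells of the larva these 4 genes were expressed was not tested.

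In the growth axis, 2 of 30 tested genes rose and 5 fell (median -0.00189), while 6 rose and 4 fell without scaling factors and the list gave 9 higher and 7 lower without the shallow libraries. The growth factor gene igf2b stood at 22.7, 36.4, 35.5, 30.1 and 29.7 CPM in vehicle libraries 1 to 5 and 73.96, 69.05, 75.8, 74.8 and 32.2 CPM in calcitriol libraries 1 to 5. Its groups overlapped and calcitriol library 5 was the lowest treated library, and it passed the test (log2 fold change 1.09 ± 0.21 (SE), adjusted p = 0.00628), as did igf2a (log2 fold change 0.62, adjusted p = 0.0284). Of the other binding protein genes igfbp5a (-0.39) and igfbp6b (-0.72) fell, as did igfbp2a, at 43.4 to 61.6 CPM in vehicle and 17.1 to 38.4 CPM in calcitriol libraries (log2 fold change -1.12 ± 0.21 (SE), adjusted p = 0.00544), and igfbp2b (log2 fold change -0.95 ± 0.15 (SE), adjusted p = 0.001604). The pituitary growth hormone gene gh1 fell by 0.95 on the log2 scale (adjusted p = 0.01204), and igf1 was not called (log2 fold change 0.29, adjusted p = 0.116). In the thyroid axis, 2 of 12 genes fell and none rose (median -0.25). These were slc5a5, the iodide transporter gene, at 2.16 to 3.17 and 0.957 to 1.21 CPM (log2 fold change -1.35 ± 0.14 (SE), adjusted p = 0.000159), and dio1, for a deiodinase of liver and kidney, at 18.6 to 23.8 and 5.91 to 12.5 CPM (log2 fold change -1.32 ± 0.18 (SE), adjusted p = 0.000926). The gene dio2, for the enzyme that makes the active thyroid hormone in tissues, had a log2 fold change of 1.08 that missed the threshold (adjusted p = 0.0548) and passed it without the shallow libraries (adjusted p = 0.000283), where the list gave 1 higher and 4 lower.

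The intestinal, liver and exocrine pancreas lists had the largest shares of falls among the 37 lists. In the intestinal list 20 of 31 tested genes fell and 1 rose, at a median of -0.65, and all 5 treated libraries had a lower summed level than all 5 vehicle libraries, with 3032 to 3508 CPM in the vehicle libraries and 1962 to 2354 CPM in the calcitriol libraries. The glucose transporter gene slc2a2 stood at 44.1, 52.8, 51.7, 47.3 and 52.1 CPM in vehicle libraries 1 to 5 and 22.9, 22.9, 23.7, 23.9 and 25.2 CPM in calcitriol libraries 1 to 5. Both groups were tight and lay apart (log2 fold change -1.05 ± 0.07 (SE), adjusted p = 1.55e-05). The gene tm4sf5, for a tetraspan membrane protein, stood at 14.7 to 17.1 and 6.39 to 8.91 CPM (log2 fold change -0.98 ± 0.11 (SE), adjusted p = 0.000236), and the brush-border peptidase gene dpp4 at 44.5 to 52.6 and 24.96 to 33.4 CPM (log2 fold change -0.78 ± 0.09 (SE), adjusted p = 0.0003701). Falls covered lipid carriers (fabp2, -1.698; fabp6, -0.60), the peptidase gene mep1b (-1.28), the peptide carrier slc15a1b (-0.52), the sodium-glucose carrier slc5a1 (-0.83) and the microvillus gene vil1 (vil1l in the file, -0.90). The phosphatase gene alpi.1 (alpi in the file) was the member that rose (log2 fold change 0.29, adjusted p = 0.0498) while its neighbour alpi.2 (zgc:110409 in the file) fell (-1.09), and reads from such related copies may be shared between them. The call of alpi.1 was kept in 1 of the 10 fits that left out 1 library (adjusted p up to 0.133), and it was lost with RLE factors, with upper quartile factors and with the replicate block by title numbers. The count of falls was 13 without calcitriol library 1 and 21 without the shallow libraries.

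Among 63 plasma proteins made by liver, 26 genes fell and 1 rose (median -0.49), and the summed level was 13009.8 to 14492 CPM in the vehicle libraries and 8011 to 11433 CPM in the calcitriol libraries. The gene ahsg, for fetuin, a plasma inhibitor of mineral deposition, stood at 22.6, 31.8, 24.9, 28.9 and 28.5 CPM in vehicle libraries 1 to 5 and 4.66, 3.98, 3.598, 4.898 and 8.995 CPM in calcitriol libraries 1 to 5. Calcitriol library 5 was by far the highest treated library and still below every vehicle library (log2 fold change -2.38 ± 0.23 (SE), adjusted p = 0.000116). The complement gene c3b stood at 67.9 to 97.6 and 8.57 to 26.9 CPM (log2 fold change -2.21 ± 0.28 (SE), adjusted p = 0.000524), and proca (proc in the file), for the anticoagulant protein C, at 12.9 to 14.5 and 5.29 to 7.76 CPM (log2 fold change -1.04 ± 0.10 (SE), adjusted p = 0.000138). The transferrin gene tfa stood at 1417, 722, 1039, 979.6 and 986 CPM in vehicle libraries 1 to 5 and 266, 215, 104, 103 and 474 CPM in calcitriol libraries 1 to 5. Calcitriol library 5 was the highest treated library and the groups did not overlap (log2 fold change -2.13 ± 0.39 (SE), adjusted p = 0.00513). Clotting factor gene f7i (log2 fold change -1.92 ± 0.33 (SE), adjusted p = 0.00387), the hemopexin gene hpx (-1.62) and the lipoprotein gene apoa4a (zgc:112992 in the file, -2.53) also fell, and rbp4, the retinol carrier, was the gene that rose, with overlapping groups (log2 fold change 0.29, adjusted p = 0.0432). Its call was kept in 2 of the 10 fits that left out 1 library (adjusted p up to 0.119) and was lost with RLE factors and with the replicate block by title numbers. The liver fatty acid binding protein gene fabp10a stood at 481, 511, 443, 405 and 401 CPM in vehicle libraries 1 to 5 and 119, 109, 70.8, 80.1 and 254 CPM in calcitriol libraries 1 to 5. Calcitriol library 5 lay between the other treated libraries and the vehicle group (log2 fold change -1.81 ± 0.30 (SE), adjusted p = 0.00293; -2.21 without the shallow libraries). Falls numbered 16 without calcitriol library 4 and 38 without the shallow libraries.

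Enzymes of nitrogen and amino acid breakdown followed, with 22 of 46 genes lower and 1 higher (median -0.34). The folate enzyme gene aldh1l1 stood at 68.3 to 96.04 CPM in vehicle and 23.3 to 45.9 CPM in treated libraries (log2 fold change -1.30 ± 0.18 (SE), adjusted p = 0.000777). Smaller falls were seen for ddc, for aromatic amino acid decarboxylase (log2 fold change -0.80 ± 0.10 (SE), adjusted p = 0.000524), and aldh6a1, of valine breakdown (log2 fold change -0.49 ± 0.07 (SE), adjusted p = 0.000771). The genes of uric acid breakdown urad (prhoxnb in the file, -1.52) and uox (-0.78) were among the falls. The member that rose was tat, described above. The falls numbered 12 to 14 without vehicle library 2 or 4 or calcitriol library 2 or 4 and 29 without the shallow libraries.

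Of 63 P450 genes other than cyp24a1, 21 fell and 3 rose (median -0.27), and the summed level was 1611 to 2382 CPM in the vehicle libraries and 1147 to 1385 CPM in the calcitriol libraries. The largest fall was that of cyp2k18 (6.56 to 8.53 CPM in vehicle, 1.201 to 3.03 CPM in treated libraries; log2 fold change -2.12 ± 0.23 (SE), adjusted p = 0.000216), followed by cyp4v2 (log2 fold change -1.82 ± 0.23 (SE), adjusted p = 0.000547) and cyp2ad2 (log2 fold change -1.69 ± 0.18 (SE), adjusted p = 0.000236). The bile acid genes cyp7a1a (-0.95) and cyp8b2 (-1.19) were lower as well. In the other direction cyp2k6, a relative of cyp2k18 on the same chromosome, stood at 3.75, 3.04, 3.57, 2.53 and 2.401 CPM in vehicle libraries 1 to 5 and 8.49, 6.92, 11.7, 11.3 and 3.77 CPM in calcitriol libraries 1 to 5 and rose 2.804-fold (log2 fold change 1.49 ± 0.27 (SE), adjusted p = 0.00451). The brain aromatase gene cyp19a1b (0.93) and the brain cholesterol hydroxylase gene cyp46a1 (0.60) rose too. The P450 list gave 4 higher and 27 lower without the 2 shallow libraries. Other detoxifying enzyme genes among the largest falls were the glucuronosyltransferase gene ugt1a5 (log2 fold change -1.78 ± 0.38 (SE), adjusted p = 0.0113) and the carboxylesterase gene ces3 (log2 fold change -2.51 ± 0.46 (SE), adjusted p = 0.00505). The methyltransferase-domain gene comtd1 fell 3.75-fold (log2 fold change -1.91 ± 0.49 (SE), adjusted p = 0.0276), but its call was lost in 6 of the 10 fits that left out 1 library, with an adjusted p of up to 0.0716.

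In the exocrine pancreas list 12 of 27 genes fell and 2 rose (median -0.62), while the summed levels overlapped, at 18835 to 31837 CPM in the vehicle libraries and 9418 to 21090.1 CPM in the calcitriol libraries. The elastase gene ela3l stood at 753, 1343, 1187, 1258 and 1046 CPM in vehicle libraries 1 to 5 and 349, 274, 335, 365 and 219 CPM in calcitriol libraries 1 to 5 (log2 fold change -1.84 ± 0.17 (SE), adjusted p = 0.000107). The chymotrypsinogen gene ctrb.2 (zgc:136461 in the file) and the amylase gene amy2al2 (zgc:92137 in the file) fell 4.13-fold (log2 fold change -2.05 ± 0.21 (SE), adjusted p = 0.000178) and 3.06-fold (log2 fold change -1.61 ± 0.18 (SE), adjusted p = 0.000253). Amylase, elastase and trypsinogen genes have close copies, so counts of single members are uncertain. The pancreatic transcription factor gene ptf1a rose (log2 fold change 0.62, adjusted p = 0.00701). Leaving out the shallow libraries gave 4 higher and 18 lower in the list.

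**Figure D3:**
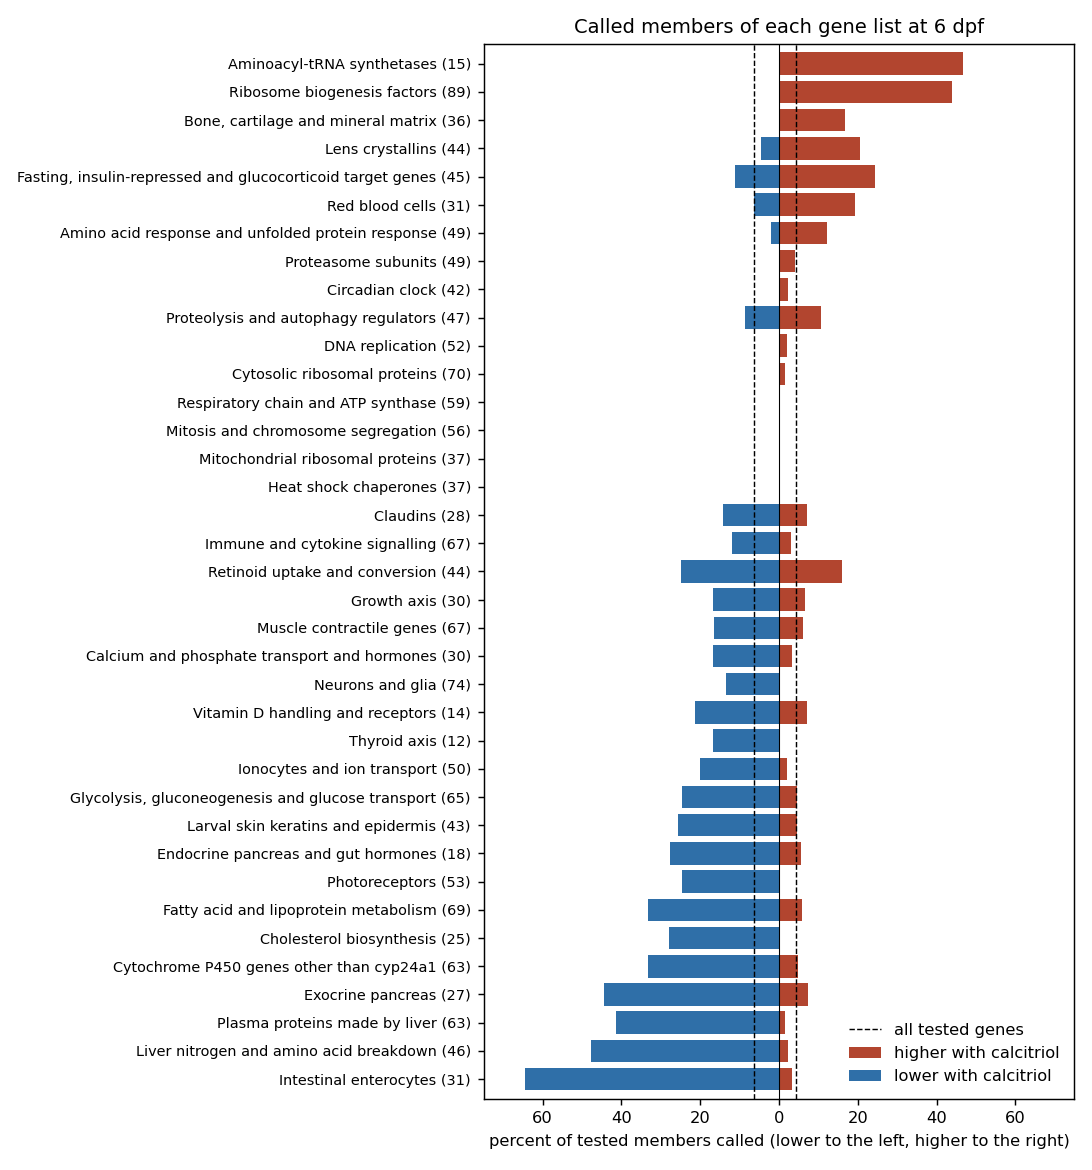
Share of the tested members of each of the 37 gene lists called lower (blue, to the left) or higher (red, to the right) at 6 dpf, in percent, with the number of tested members in brackets. Dashed lines mark the shares over all tested genes, 6.32% lower and 4.37% higher. The intestinal, liver and exocrine pancreas lists have the largest shares of falls, and the aminoacyl-tRNA synthetases and ribosome biogenesis factors the largest shares of rises.

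Of 69 genes of fatty acid and lipoprotein metabolism 23 fell and 4 rose (median -0.36), with summed levels of 8855 to 9561 CPM in the vehicle libraries and 7099 to 7411 CPM in the calcitriol libraries. The elongase gene elovl2, for long polyunsaturated fatty acids, stood at 11.2, 12.5, 12.2, 11.96 and 14.4 CPM in vehicle libraries 1 to 5 and 3.52, 3.53, 2.87, 3.78 and 5.21 CPM in calcitriol libraries 1 to 5, with all treated libraries below (log2 fold change -1.71 ± 0.15 (SE), adjusted p = 6.95e-05). The fatty acid sensor gene pparaa fell 2.09-fold (log2 fold change -1.06 ± 0.10 (SE), adjusted p = 0.000116) and the fatty acid transport gene slc27a4 1.74-fold (log2 fold change -0.80 ± 0.07 (SE), adjusted p = 6.95e-05). The desaturase gene scd went the other way (log2 fold change 1.16, adjusted p = 0.0368), as did lipc (0.86), pltp (0.85) and elovl1a (0.74). The falls numbered 37 without calcitriol library 5 and 41 without both shallow libraries.

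In glycolysis, gluconeogenesis and glucose transport 16 of 65 genes fell and 3 rose (median -0.20). The pyruvate kinase gene pklr (chromosome 16, 57894802 to 57899241 over 4 listed exons), of liver and red cells, stood at 531, 479.6, 372, 445 and 507 CPM in vehicle libraries 1 to 5 and 117, 105, 143, 141 and 147 CPM in calcitriol libraries 1 to 5. Every treated library was below the lowest vehicle library by a wide margin (log2 fold change -1.83 ± 0.13 (SE), adjusted p = 1.72e-05; -1.83 without the shallow libraries). The muscle aldolase gene aldoab fell 1.54-fold (log2 fold change -0.62 ± 0.08 (SE), adjusted p = 0.000407). The glycogen phosphorylase gene pygl (-1.03) fell with both forms of fructose bisphosphatase, fbp1a (-0.74) and fbp1b (-0.34). Falls numbered 10 without calcitriol library 1, 33 without calcitriol library 5 and 37 without both shallow libraries. In cholesterol synthesis 7 of 25 genes fell and none rose (median -0.30), with cyp51 (log2 fold change -0.89 ± 0.18 (SE), adjusted p = 0.00976), dhcr7 and ebp (log2 fold change -0.75 ± 0.17 (SE), adjusted p = 0.0163) carrying the smallest p. That count was 3 or 4 without vehicle library 4 or 5 or calcitriol library 1, 2 or 4, and 3 fell and 1 rose without scaling factors. Without both shallow libraries 10 fell and 2 rose.

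Of 89 ribosome biogenesis factors, which process ribosomal RNA and assemble ribosomal subunits in the nucleolus, 39 rose and none fell, at a median of 0.40. The gene wdr75, of the small subunit processome, stood at 36.8, 34.2, 35.2, 32.2 and 31.98 CPM in vehicle libraries 1 to 5 and 53.1, 47.5, 58.05, 51.5 and 41.1 CPM in calcitriol libraries 1 to 5 (log2 fold change 0.57 ± 0.09 (SE), adjusted p = 0.00242). The kinase gene riok2 (log2 fold change 0.56 ± 0.10 (SE), adjusted p = 0.00374) and the processing factor gene pdcd11 (log2 fold change 0.46 ± 0.08 (SE), adjusted p = 0.00485) rose similarly, with heatr1 the largest of the called rises at 0.71 and utp6 the smallest at 0.34. The sum over the list was 4908 to 5465 CPM in the vehicle libraries and 5383 to 7465 CPM in the calcitriol libraries, so the groups overlapped. Rises numbered 16 to 24 without vehicle library 2, 3, 4 or 5 or calcitriol library 1, 3 or 4, 61 without vehicle library 1, and 70 without both shallow libraries. Of 70 genes listed as cytosolic ribosomal proteins, 1 rose and none fell (1.43% called, median -0.07), against 4.37% called higher over all tested genes. The gene that rose was the ribosomal protein L7-like gene rpl7l1 (log2 fold change 0.36 ± 0.10 (SE), adjusted p = 0.0418), whose call was lost in 7 of the 10 fits that left out 1 library (adjusted p up to 0.127). Without the shallow libraries the list gave 1 higher and 1 lower.

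Aminoacyl-tRNA synthetase genes, whose enzymes load tRNAs with amino acids, showed 7 rises among 15 and no fall (median 0.37), and all treated libraries had a higher sum than all vehicle libraries, at 1442 to 1568 CPM in the vehicle libraries and 1590.1 to 2334 CPM in the calcitriol libraries. The alanyl synthetase gene aars stood at 208 to 230.0 CPM in vehicle and 247 to 393 CPM in treated libraries (log2 fold change 0.52 ± 0.11 (SE), adjusted p = 0.0127). The genes tars (log2 fold change 0.59 ± 0.13 (SE), adjusted p = 0.0125) and farsb (log2 fold change 0.42 ± 0.09 (SE), adjusted p = 0.0134) rose as well. The count was 4 without calcitriol library 4 and 13 without the shallow libraries. In the amino acid and unfolded protein response 6 of 49 genes rose and 1 fell (median 0.27). The neutral amino acid carrier gene slc1a4 stood at 15.6, 11.7, 13.5, 13.9 and 14.02 CPM in vehicle libraries 1 to 5 and 35.4, 25.1, 57.5, 42.3 and 22.9 CPM in calcitriol libraries 1 to 5, without overlap (log2 fold change 1.43 ± 0.22 (SE), adjusted p = 0.00172). The serine synthesis gene psat1 rose 1.65-fold (log2 fold change 0.72 ± 0.09 (SE), adjusted p = 0.000525), and chac1 (0.70), slc1a5 (0.57), slc3a2b (zgc:55813 in the file, 0.51) and asns (0.35) made up the rest of the rises. The member that fell was stc2a, described above. Rises numbered 3 without vehicle library 4 or calcitriol library 1, 15 without vehicle library 1, 16 without calcitriol library 5 and 26 without both shallow libraries.

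No heat shock chaperone gene was called by edgeR among 37 tested (median 0.14), with 7 higher and 1 lower at an unadjusted p under 0.05. In this list DESeq2 called 3 higher and 0 lower, and limma voom with quality weights 17 higher and 1 lower. With a replicate block by exon table numbers edgeR called 7 higher and 1 lower, and without scaling factors 8 higher and 0 lower. Over all tested genes (13505, or 13500 with DESeq2) DESeq2 called 964 higher and 1235 lower, and voom 2259 and 2089. This block gave 1747 and 1710 over all genes, and no scaling 1735 and 609. In the main fit 4.37% of all tested genes were called higher and 6.32% lower, and without the shallow libraries 12.1% and 14.0%. The list counts of this paragraph are to be read beside these. The inducible gene hsp70l stood at 10.14, 1.701, 2.81, 2.25 and 3.39 CPM in vehicle libraries 1 to 5 and 11.2, 3.64, 54.97, 12.5 and 3.77 CPM in calcitriol libraries 1 to 5. The values spread widely in both groups and overlapped. The log2 fold change of 2.13 ± 0.76 (SE) missed the threshold (adjusted p = 0.0993). Without the shallow libraries 15 chaperone genes were called higher and 1 lower, hsp70l among the former (adjusted p = 0.0351). In the proteasome 2 of 49 genes rose (4.08%, median 0.16), near the 4.37% called higher over all tested genes. These were psme3 (log2 fold change 0.46 ± 0.11 (SE), adjusted p = 0.0209) and psmd11b (log2 fold change 0.37 ± 0.09 (SE), adjusted p = 0.0231), both with overlapping groups and both lost in some of the fits that left out 1 library. In the fit without the shallow libraries 17 rose and none fell, and voom called 23 higher and 0 lower. DNA replication had 1 rise among 52 genes (1.92%, median 0.22), a share below that over all genes. It was the ribonucleotide reductase gene rrm2 (log2 fold change 0.70 ± 0.20 (SE), adjusted p = 0.0404), which stayed called in 2 of the 10 fits that left out 1 library. Without the shallow libraries the replication list gave 6 higher and 0 lower, a share of rises near that over all genes, and voom called 13 higher and 0 lower. Of 56 mitosis genes 55 had a positive log2 fold change (median 0.36), and edgeR called none, with 3 higher and 0 lower at an unadjusted p under 0.05. Here DESeq2 called 0 higher and 0 lower, and limma voom with quality weights 35 higher and 0 lower. With a replicate block by exon table numbers edgeR called 21 higher and 0 lower, and without scaling factors 1 higher and 0 lower. The fit without the shallow libraries gave 9 higher and 0 lower. Among 59 respiratory chain genes (median -0.04) edgeR called none, with 0 higher and 2 lower at an unadjusted p under 0.05. For these DESeq2 called 0 higher and 1 lower, and limma voom with quality weights 0 higher and 2 lower. With a replicate block by exon table numbers edgeR called 0 higher and 2 lower, and without scaling factors 1 higher and 0 lower. The fit without the shallow libraries gave 0 higher and 3 lower. Of 37 mitochondrial ribosomal protein genes 35 had a positive value (median 0.14), and edgeR again called none, with 5 higher and 0 lower at an unadjusted p under 0.05. In these DESeq2 called 0 higher and 0 lower, and limma voom with quality weights 14 higher and 0 lower. With a replicate block by exon table numbers edgeR called 6 higher and 0 lower, and without scaling factors 9 higher and 0 lower. The fit without the shallow libraries gave 7 higher and 0 lower. The clock list had 1 rise among 42 genes (2.38%, median -0.02), a share also below that over all genes in the main fit. This was aanat2, a melatonin synthesis gene of the pineal, with overlapping groups (log2 fold change 0.44 ± 0.12 (SE), adjusted p = 0.0368). Its call was kept in 2 of the 10 fits that left out 1 library (adjusted p up to 0.104) and was lost with the replicate block by title numbers. For the clock list the fit without the shallow libraries gave 2 higher and 4 lower.

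Outside the lists, 2 chromatin genes were among the named rises. The chromatin architecture gene hmga1b stood at 32.4, 39.8, 35.4, 35.9 and 35.4 CPM in vehicle libraries 1 to 5 and 84.7, 81.8, 71.5, 95.04 and 81.9 CPM in calcitriol libraries 1 to 5. The groups lay far apart (log2 fold change 1.23 ± 0.09 (SE), adjusted p = 1.63e-05). The histone H3 lysine 27 methyltransferase gene ezh2 stood at 7.95 to 16.4 CPM in vehicle and 23.8 to 27.5 CPM in treated libraries (log2 fold change 1.11 ± 0.16 (SE), adjusted p = 0.00101). The peptide hormone gene adm2 (log2 fold change 1.76 ± 0.18 (SE), adjusted p = 0.000178), the transporter gene slc16a12b (log2 fold change 1.23 ± 0.15 (SE), adjusted p = 0.000417) and the stress-responsive gene ndrg1l (log2 fold change 1.18 ± 0.20 (SE), adjusted p = 0.00312) rose as well. Of 47 genes of proteolysis and autophagy 5 rose and 4 fell (median 0.09). The lysosomal protease genes ctsbb (log2 fold change -1.13 ± 0.11 (SE), adjusted p = 0.000116) and ctsl.1 (log2 fold change -1.12 ± 0.14 (SE), adjusted p = 0.0006002) fell, while the muscle ligase gene trim63b (zgc:56376 in the file, adjusted p = 0.000663) and the autophagy kinase gene ulk1a (1.04) rose. The rises numbered 8 without calcitriol library 5, and without both shallow libraries the list gave 12 higher and 6 lower.

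**Figure D4:**
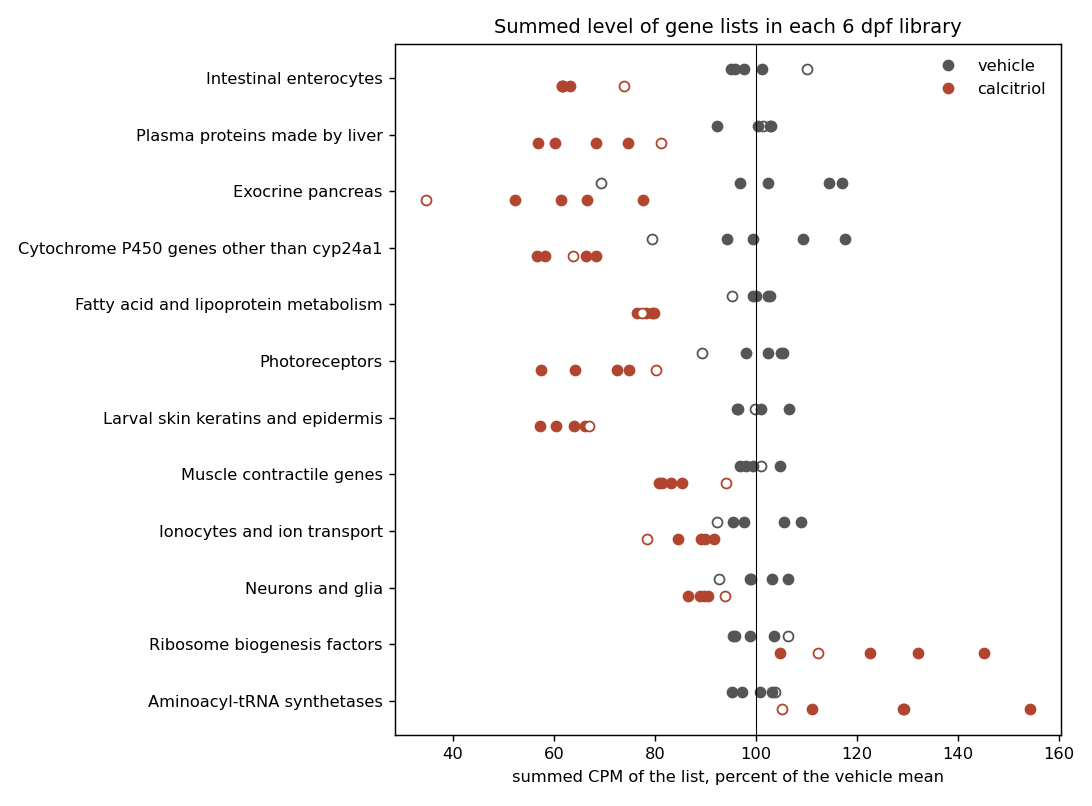
Summed CPM of 12 gene lists in each 6 dpf library, as a percent of the vehicle mean of that list; vehicle in grey, calcitriol in red, open circles for the shallow vehicle library 1 and calcitriol library 5. Treated libraries lie below all vehicle libraries for the intestinal, plasma protein, P450, fatty acid, photoreceptor, skin, muscle and ion transport lists, and above them for the tRNA synthetases.

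Of 53 photoreceptor genes 13 fell and none rose (median -0.31), and the summed level was 10908 to 12861 CPM in the vehicle libraries and 7020.4 to 9783 CPM in the calcitriol libraries. The green cone opsin gene opn1mw1 stood at 522, 319, 337, 363 and 374 CPM in vehicle libraries 1 to 5 and 78.99, 86.2, 27.9, 49.96 and 288 CPM in calcitriol libraries 1 to 5. Vehicle library 1 was the highest vehicle library and calcitriol library 5 the highest treated one, and the groups did not overlap (log2 fold change -1.83 ± 0.51 (SE), adjusted p = 0.0387), and the call held in 1 of the 10 fits that left out 1 library. This gene has close tandem copies, so its reads may be shared with them. The other cone opsin genes called were opn1sw2 (-1.45), opn1lw2 (-1.34) and opn1sw1 (-1.31). The cone transduction genes grk7a, for a cone opsin kinase (log2 fold change -0.98 ± 0.22 (SE), adjusted p = 0.0157), and gnb3b, for a G protein subunit (log2 fold change -0.87 ± 0.20 (SE), adjusted p = 0.0155), fell with the outer segment disc gene prph2b (log2 fold change -0.73 ± 0.15 (SE), adjusted p = 0.00938). Falls in this list numbered 4 without calcitriol library 4, 6 to 8 without any one of calcitriol libraries 1 and 3 and vehicle libraries 2 to 5, 23 without calcitriol library 5 and 30 without both shallow libraries.

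Lens crystallin genes, which encode the refractive proteins of lens fibres, gave 9 rises and 2 falls among 44 (median -0.02). The gamma crystallin gene crygm1 stood at 0.576 to 1.71 CPM in vehicle and 2.06 to 4.17 CPM in treated libraries (log2 fold change 1.6995 ± 0.27 (SE), adjusted p = 0.00192), crygmxl1 rose 3.16-fold (log2 fold change 1.66 ± 0.23 (SE), adjusted p = 0.000855) and crygm2b 2.204-fold (log2 fold change 1.14 ± 0.15 (SE), adjusted p = 0.0006597). The rises were of gamma M crystallins with crygs2 (0.85) and crybb2 (1.55), and the falls were of cryaa (-0.47) and cryba1a (-0.43). Gamma crystallin copies are near identical in part, so counts of single members are uncertain. The list gave 11 higher and 3 lower without the 2 shallow libraries. Retinoid genes went both ways, with 7 higher and 11 lower among 44 (median -0.02), but 12 higher and 10 lower without scaling factors. The retinol uptake receptor gene stra6 stood at 63.5, 76.6, 66.4, 68.1 and 66.7 CPM in vehicle libraries 1 to 5 and 39.3, 40.04, 39.8, 35.4 and 46.2 CPM in calcitriol libraries 1 to 5 and fell 1.68-fold (log2 fold change -0.75 ± 0.08 (SE), adjusted p = 0.000255). The dehydrogenase gene rdh1 fell 2.01-fold (log2 fold change -1.01 ± 0.14 (SE), adjusted p = 0.00107) and rdh10a, which makes retinaldehyde for retinoic acid synthesis, rose 1.38-fold (log2 fold change 0.47 ± 0.07 (SE), adjusted p = 0.00211). Cellular retinoic acid binding protein genes rose (crabp2b, 0.67; crabp1a, 0.53; crabp2a, 0.45), while the carotene cleavage gene bco1l (zgc:63614 in the file, -1.39) and the gut retinol binder gene rbp2a (-1.11) fell. The count of rises was 4 without vehicle library 4 or 5 or calcitriol library 1, 2 or 4, and 11 without calcitriol library 5, and without both shallow libraries the list gave 13 higher and 16 lower.

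Of 43 tested genes of larval skin 11 fell and 2 rose (median -0.14), and the sum was 40838 to 45266 CPM in the vehicle libraries and 24335 to 28402 CPM in the calcitriol libraries. The outer epidermis keratin gene krt4, the most abundant of the changed ones, stood at 16262, 15500.2, 15341, 15221 and 16928 CPM in vehicle libraries 1 to 5 and 7529, 9189, 7335, 8297 and 9092 CPM in calcitriol libraries 1 to 5. The groups were cleanly apart (log2 fold change -0.92 ± 0.08 (SE), adjusted p = 6.95e-05). Type I keratin genes cyt1 (log2 fold change -1.06 ± 0.10 (SE), adjusted p = 0.000116) and krt91 (zgc:92533 in the file; log2 fold change -0.70 ± 0.07 (SE), adjusted p = 0.000108) fell with it, and cyt1l fell by more, 4.57-fold (log2 fold change -2.19 ± 0.25 (SE), adjusted p = 0.000322). Keratin genes lie in clusters of close copies. The genes krt98 (zgc:171226 in the file, 1.34) and krt18 (0.45) were the members that rose. Leaving out the shallow libraries gave 4 higher and 12 lower in the list.

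Of 28 claudin genes, which form tight junctions, 2 rose and 4 fell (median 0.03). The blood vessel claudin gene cldn5b stood at 10.7, 9.64, 12.4, 12.2 and 11.6 CPM in vehicle libraries 1 to 5 and 22.9, 27.6, 25.03, 25.5 and 17.9 CPM in calcitriol libraries 1 to 5 and rose 2.13-fold (log2 fold change 1.09 ± 0.11 (SE), adjusted p = 0.000189). Gut claudin genes cldn15la (log2 fold change -0.80 ± 0.11 (SE), adjusted p = 0.00103) and cldn15a (log2 fold change -0.63 ± 0.07 (SE), adjusted p = 0.000236) fell. Without the shallow libraries the claudins gave 3 higher and 7 lower, and without scaling factors 3 higher and 3 lower. Among 50 genes of ionocytes and ion transport 10 fell and 1 rose (median -0.15), with sums of 4230.3 to 4988 CPM in the vehicle libraries and 3594 to 4204 CPM in the calcitriol libraries. The aquaporin gene aqp8b stood at 0.177 to 0.734 CPM in vehicle and 0.0218 to 0.0651 CPM in treated libraries (log2 fold change -2.94 ± 0.46 (SE), adjusted p = 0.00189). The aquaporin gene aqp10a (log2 fold change -1.25 ± 0.15 (SE), adjusted p = 0.000335) and the anion exchanger gene slc26a3.2 (si:dkey-31f5.1 in the file; log2 fold change -1.02 ± 0.14 (SE), adjusted p = 0.00102) fell as well. Sodium pump genes atp1a1a.2 to atp1a1a.5 were lower, with changes from -0.48 to -0.69 on the log2 scale, but these tandem copies share sequence and may share reads. Another sodium pump gene, atp1a1b, was called higher, with overlapping groups (log2 fold change 0.26 ± 0.07 (SE), adjusted p = 0.0341). Rises in the ion transport list numbered 0 to 4 in the fits that left out 1 library. The ion transport list gave 4 higher and 15 lower without the 2 shallow libraries.

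Among muscle contractile genes 11 of 67 fell and 4 rose (median -0.16), with sums of 173971 to 188226 CPM in the vehicle libraries and 145076 to 169107 CPM in the calcitriol libraries. The creatine kinase genes ckma (log2 fold change -0.44 ± 0.06 (SE), adjusted p = 0.000855) and ckmb (log2 fold change -0.44 ± 0.06 (SE), adjusted p = 0.000762) fell by similar amounts, and mybpc2b, for a fast-muscle myosin binding protein, rose 1.66-fold (log2 fold change 0.73 ± 0.08 (SE), adjusted p = 0.000302). Falls numbered 5 to 7 without vehicle library 2 or 4 or calcitriol library 1, 3 or 4, 23 without calcitriol library 5 and 28 without both shallow libraries. Without scaling factors 6 fell and 7 rose, so the balance of this list turned with the scaling. The same held for neuronal and glial genes, of which 10 of 74 fell and none rose (median -0.19), whereas 1 fell and 3 rose without scaling. Their changes were small, as for the glutamate loader gene slc17a6b (log2 fold change -0.32 ± 0.06 (SE), adjusted p = 0.00871), and the calls for the transporter genes slc1a2a (log2 fold change -0.55 ± 0.13 (SE), adjusted p = 0.02097) and slc6a5 (log2 fold change -0.49 ± 0.12 (SE), adjusted p = 0.0211), which had overlapping groups, were each lost in 5 of the 10 fits that left out 1 library. Falls in the neuronal list numbered 1 to 3 without any one of vehicle libraries 2 to 5 or calcitriol libraries 1 to 4, 22 without vehicle library 1, 20 without calcitriol library 5 and 39 without both shallow libraries.

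In the red cell list 6 of 31 genes rose and 2 fell (median 0.03). The largest fall among the genes named for the size of their change was that of rh50, for an Rh-type glycoprotein. It stood at 12.5, 13.03, 12.1, 12.8 and 13.3 CPM in vehicle libraries 1 to 5 and 2.25, 1.86, 1.43, 1.35 and 3.42 CPM in calcitriol libraries 1 to 5. Each treated library was below each vehicle library, 6.204-fold on average (log2 fold change -2.63 ± 0.22 (SE), adjusted p = 6.95e-05). The vehicle mean of rh50 was 0.0026 CPM at 2 dpf, 2.44 CPM at 4 dpf and 12.7 CPM at 6 dpf. Whether its fall concerned red cells was not tested. The antioxidant gene prdx2 fell 1.44-fold (log2 fold change -0.53 ± 0.09 (SE), adjusted p = 0.004299). The regulators klf1 (klfd in the file; log2 fold change 0.70 ± 0.14 (SE), adjusted p = 0.00879) and gata1a (0.79), the transferrin receptor gene tfr1a (0.67) and the anion exchanger gene slc4a1a (slc4a1 in the file, 0.53) rose. The rises numbered 2 or 3 without vehicle library 3, 4 or 5 or calcitriol library 1, 2, 3 or 4, and 11 without the shallow libraries. Of 67 immune genes 8 fell and 2 rose (14.9% called, median 0.06). Over all tested genes 6.32% were called lower and 4.37% higher, so the share of rises in this list was below that over all. Those that fell included products of liver, namely c3b, the C-reactive protein gene crp3 (si:ch211-234p6.12 in the file; log2 fold change -1.95 ± 0.27 (SE), adjusted p = 0.000889) and the antimicrobial peptide gene leap2 (zgc:194626 in the file, -2.31), and the cytokine feedback genes cish (-1.15) and socs1a (socs1 in the file, -0.85). Those that rose were bcl6ab, a transcriptional repressor gene (log2 fold change 0.82 ± 0.12 (SE), adjusted p = 0.00106), and stat3 (0.76). Leaving out the shallow libraries gave 5 higher and 8 lower in the list. Both shares were below the 12.1% called higher and 14.0% called lower over all genes in that fit.

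Other calls given above also depended on single libraries. Of the 10 fits that left out 1 library, 1 fit each kept the calls of fabp6, urad, stat3, chac1, opn1lw2 and heatr1. The calls of cyp46a1, slc8a1b, pfkfb4a, fbp1b, crabp2a, utp6 and krt98 were kept in 2 of these fits. The calls of gc, igf2a, pth2, gip, scd, krt18, crygs2 and slc4a1a were kept in 3. Those of uox, matn3a, apoa4a and slc1a5 were kept in 4 and those of gata1a and sesn1 in 5. Those of insm1a, cryaa, opn1sw2, atp1a1a.5, vil1 and lipc were kept in 6. The call of asns was kept in 7 fits, those of pygl, rbp2a and opn1sw1 in 8 and that of ctsk in 9.

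The same treatment was compared at 4 and 7 dpf in libraries that the 6 dpf comparison does not use. At 4 dpf none of 13410 tested genes was called by edgeR (0.0%, with 924 at an unadjusted p under 0.05), and at 7 dpf 3866 of 13434 were (28.8%). For each of these ages alone only the main fit was run, so how its count depends on the processing was not tested. The lack of calls at 4 dpf is not a lack of change. There cyp24a1 stood at 14.6 to 45.9 CPM in vehicle and 71.6 to 341 CPM in calcitriol libraries. Of the 590 genes that rose at 6 dpf, 470 (79.7%) were called higher at 7 dpf, where 14.6% of the genes tested at both ages were. Of the 854 that fell, 761 (89.1%) were called lower at 7 dpf, against 14.2% of all, and none was called in the opposite direction. Taken the other way, these are 23.96% of the 7 dpf rises and 39.97% of the 7 dpf falls. At 4 dpf the sign was that of 6 dpf for 1315 of the 1440 calls tested there (91.3%), and for 66.01% of the genes not called. Over the genes changed at least 2-fold at 6 dpf, the median ratio of the log2 fold change to that at 6 dpf was 0.325 at 4 dpf and 1.19 at 7 dpf.

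**Figure D5:**
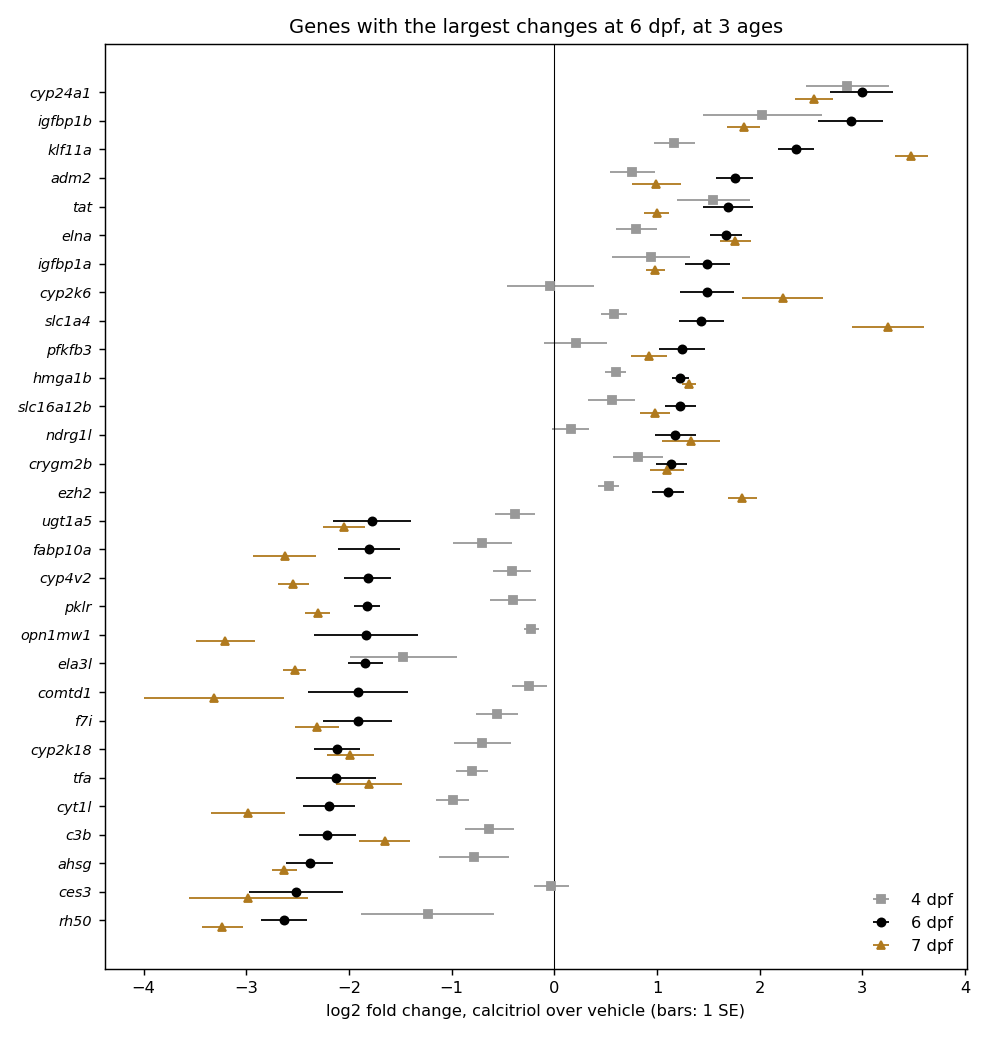
Log2 fold change of calcitriol over vehicle at 4, 6 and 7 dpf for the 30 genes with the largest changes at 6 dpf under the naming rule, with bars of 1 SE. Genes are ordered by the 6 dpf value. Most 4 dpf values lie nearer to 0 than the 6 dpf ones, with cyp24a1 and tat near their 6 dpf values. Genes that lie farther from 0 at 7 dpf than at 6 dpf include klf11a, slc1a4 and opn1mw1.

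For cyp24a1 the log2 fold change was 2.85 at 4 dpf and 2.53 at 7 dpf, next to 2.99 at 6 dpf, and for tat it was 1.55 at 4 dpf and 1.00 at 7 dpf. For klf11a it was 1.17 at 4 dpf and 3.48 at 7 dpf and for slc1a4 0.58 at 4 dpf and 3.25 at 7 dpf. For cyp2k6 it was -0.04 at 4 dpf and 2.22 at 7 dpf, and for ces3 -0.03 at 4 dpf and -2.98 at 7 dpf. The test of the difference itself, with the 20 libraries of both ages in one fit, called 5 of 13564 genes (0.0369%) between 6 and 4 dpf, and 1030 had an unadjusted p under 0.05. These genes were cldn5b (6 minus 4 dpf difference 0.84 ± 0.15 (SE), adjusted p = 0.0475), ins (-1.38 ± 0.23, adjusted p = 0.0278), stc1l (-0.96 ± 0.16, adjusted p = 0.0278), ckmb (-0.49 ± 0.08, adjusted p = 0.0278) and ckma (-0.44 ± 0.07, adjusted p = 0.0278). For ins the log2 fold change was -0.37 at 4 dpf and -3.01 at 7 dpf, for stc1l 0.20 at 4 dpf and -1.35 at 7 dpf and for cldn5b 0.23 at 4 dpf and 1.59 at 7 dpf. Calls between 6 and 4 dpf numbered 0 without any one of vehicle libraries 2 to 5 or calcitriol libraries 1 and 4 of 6 dpf or vehicle libraries 3 and 5 or calcitriol libraries 1 and 5 of 4 dpf, and 283 without calcitriol library 5 of 6 dpf. Between 7 and 6 dpf edgeR called none of 13573 genes (0.0%), 1024 had an unadjusted p under 0.05, and DESeq2 called 49.

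The genes that calcitriol lowered at 6 dpf were mostly ones whose level in vehicle larvae climbed between 2 and 4 dpf, a change measured in libraries outside the 6 dpf comparison. Over the 854 genes that fell, the median change of the vehicle mean from 2 to 4 dpf was 1.17 on the log2 scale (CPM plus 0.5), and 478 of them (55.97%) climbed by over 1 log2 unit. For all tested genes the median was 0.01 and the share 12.5%. Among the 183 genes that fell at least 2-fold the median was 1.99 and the share 74.9%. The 590 genes that rose had a median of -0.09, and 8.14% of them climbed by over 1 log2 unit. From 4 to 7 dpf the medians in vehicle were 0.12 for the genes that fell, -0.0011 for those that rose and -0.03 for all. Over these days 14.1% of the genes that fell, 9.49% of those that rose and 4.98% of all climbed by over 1 log2 unit. The shares were 22.4% for genes that fell at least 2-fold and 23.8% for those that rose as much. These are descriptions of the called genes, without a test.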

How the data were processed

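Poly-A RNA of pooled whole larvae was sequenced as paired 51-base reads, per the labels' protocols. The authors deposited whole-number counts per gene and per exon for each library; CASAVA 1.4 and HTSeq 0.5.3p3 are named in the submitters' processing notes, and the aligner and genome build are not given in the sources used here. Scaffold names in the gene identifiers carry the prefix Zv9, and chromosomes and exon positions are printed as the files give them. The kit does not mark strand, so overlapping and antisense genes cannot be told apart. From the 14267 gene counts, filterByExpr of edgeR 4.0.16 (R 4.3.3) kept 13505 genes over the 10 libraries of 6 dpf, and a robust quasi-likelihood fit with TMM factors and treatment alone as a term gave log2 fold changes, SE and p-values, adjusted by Benjamini-Hochberg over all tested genes at 0.05. Differences between ages were tested as interaction terms in fits of 20 libraries. CPM values use TMM factors over all 40 libraries. Scripts were tested on simulated data. The alternatives were RLE, upper quartile and no scaling factors, no filter and a filter of 1 CPM in 5 libraries, DESeq2 1.42.0, limma 3.58.1 voom with quality weights, a replicate block, one fit of 40 libraries, and fits without the shallow libraries or any one library.

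The 37 gene lists, and the comparison itself, were chosen with earlier results of these data known, so list counts are descriptions and no list was tested. Named in the text are up to 15 genes each way with the largest called change (groups apart, mean log2 CPM of at least 2, no placeholder symbol), cyp24a1, vdra and vdrb, up to 3 called members of each list with the smallest p, and up to 5 genes of each age difference. Any other gene was named after its values were seen, and some called members of the lists are not reported here. File symbols were matched to current names through a RefSeq-based table, in which the symbols of 13690 of the 14267 genes were found. Libraries of a group differed by far more than sampling noise, so each counted as 1 sample. With 67235165 counts or more in every library, counting error is small beside the spread between libraries for most genes. It is a larger part of the value for genes far below 1 CPM, such as aqp8b, scpp7, slco1f4 and lepa.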

Additional observations from a re-analysis of the deposited data

Results flagged for a closer look

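Single libraries stood apart from the rest of their group by a gap that took more than Dixon's critical share of the group's range in 31 of 286 sets of 5 values examined (10.8%), from the named genes and the list sums. Chance alone marks about 1 in 20 groups, and these sets are not independent, since they share libraries. In 18 of the 31 the library was the shallow calcitriol library 5, and in 11 it was the shallow vehicle library 1. The part of depth in these values was not tested.

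Calcitriol library 5 was the highest of its group, on the side of vehicle, for slc27a4 (19.8 CPM), ctsbb (25.04 CPM), ahsg (8.995 CPM), fabp10a (254 CPM), f7i (7.18 CPM), igfbp2a (38.4 CPM), gnb3b (346 CPM), comtd1 (5.32 CPM), opn1mw1 (288 CPM) and crp3 (si:ch211-234p6.12 in the file, 20.9 CPM). It was the lowest of its group for igf2b (32.2 CPM) and vdrb (17.9 CPM), and the highest, away from vehicle, for crygmxl1 (5.75 CPM). Its summed level stood apart for the intestinal list (2354 CPM), pancreas and gut hormones (4418 CPM), the growth axis (1069.9 CPM), DNA replication (1934 CPM) and the clock list (5086 CPM).

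Vehicle library 1 stood apart for aqp10a (6.03 CPM), aldoab (1114 CPM), trim63b (zgc:56376 in the file, 66.1 CPM), slc26a3.2 (si:dkey-31f5.1 in the file, 50.7 CPM), ndrg1l (32.2 CPM), ugt1a5 (56.9 CPM), slc1a2a (32.4 CPM) and opn1mw1 (522 CPM). Its sums did so for the growth axis (1152 CPM), proteasome (2899.6 CPM) and mitochondrial ribosomal proteins (761 CPM). The other 2 cases were calcitriol library 4 for cldn15a (13.9 CPM) and vehicle library 2 for the plasma proteins (13009.8 CPM).

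The calcitriol effect itself was called different between 6 and 4 dpf, by the interaction test of edgeR, for cldn5b (0.84 on the log2 scale), ins (-1.38), stc1l (-0.96), ckmb (-0.49) and ckma (-0.44). Calls of this test numbered 0 to 283 in fits without 1 library, and 0 with the replicate block by title numbers.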

How the results depend on the processing

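None of the 106 genes named by the rule above turned its direction under any alternative, and 92 of them kept their call and direction in all. Of the 104 called, 9 lost the call in at least 1 fit without 1 library. Most of the 106 were picked for a small p or a large change with groups apart, which favours calls that hold. Many other genes given in the text lost their calls in some of these fits, as listed above. Among all 1444 called genes, 756 were called in every fit without 1 library. The count of 1444 called genes (590 higher, 854 lower) was 2344 without scaling factors (1735 higher), 2199 with DESeq2 (964 higher), 4348 with voom quality weights (2259 higher, 2089 lower) and 3532 without the shallow libraries (1638 higher, 1894 lower). Without 1 library it ranged from 849 (calcitriol library 4; also 874, 940, 894 and 960 without vehicle library 4 or 5 or calcitriol library 1 or 3) to 2310 (calcitriol library 5), with 287 to 1017 higher and 562 to 1389 lower. Counts of list members in fits without 1 library are to be read beside these totals. The 5 genes differing between 6 and 4 dpf became 9 with upper quartile factors, 8 without scaling, 107 with DESeq2, 536 with voom, 339 without the shallow libraries, and 0 to 283 without 1 library. Between 7 and 6 dpf 0 became 49 with DESeq2, 2802 with voom, 878 without the shallow libraries and 0 to 327 without 1 library. The cause was not tested.

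Replicate numbers are shared between groups. Deviations from the group means correlated at -0.339 to 0.251 within pairs of the same title number and at 0.0929 to 0.535 within pairs numbered as in the exon table, where the shallow libraries are both number 1. All pairs by exon table number were thus positive, and the libraries numbered 1 there had the lowest total counts of their group at every age. Pairs that shared neither number correlated at -0.336 to 0.392. The highest of these, vehicle library 3 with calcitriol library 1, was above most pairs by exon table number. The labels name no block, so the main fit used neither numbering. Whether the exon table numbers mark a shared block was not tested. With the replicate block by title numbers 921 genes were called (291 higher) and 0 differed between 6 and 4 dpf. With the replicate block by exon table numbers 3457 were called (1747 higher, 1710 lower), 177 differed between 6 and 4 dpf and 33 between 7 and 6 dpf.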

Other observations

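Large changes also occurred in genes outside the lists and below the level set for naming, chosen here after their values were seen. The leptin gene lepa, for a hormone of energy balance, stood at 0.297, 0.197, 0.358, 0.397 and 0.128 CPM in vehicle libraries 1 to 5 and 2.41, 1.59, 1.83, 2.201 and 0.508 CPM in calcitriol libraries 1 to 5. The groups did not overlap at these low levels (log2 fold change 2.65 ± 0.40 (SE), adjusted p = 0.00148), and the log2 fold change at 7 dpf was 3.46. The gene scpp7, of the secretory calcium-binding phosphoproteins of mineralised tissue, stood at low levels, at 0 to 0.102 and 0.05803 to 0.373 CPM with overlap (log2 fold change 2.96 ± 0.76 (SE), adjusted p = 0.0279), and its call was kept in 4 of the 10 fits that left out 1 library. The organic anion transporter gene slco1f4 rose, at 0.0156 to 0.173 CPM in vehicle and 0.319 to 0.669 CPM in treated libraries (log2 fold change 2.28 ± 0.39 (SE), adjusted p = 0.00339).

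Among the falls, ebi3, for a subunit of heterodimeric cytokines in mammals, stood at 8.03, 4.26, 4.9999, 4.91 and 6.29 CPM in vehicle libraries 1 to 5 and 1.07, 1.57, 0.822, 0.801 and 1.697 CPM in calcitriol libraries 1 to 5, wholly apart (log2 fold change -2.26 ± 0.25 (SE), adjusted p = 0.000273). The aldo-keto reductase gene akr1a1a (2.12 to 4.92 and 0.316 to 0.823 CPM; log2 fold change -2.38 ± 0.29 (SE), adjusted p = 0.000485), the plasma protease gene habp2 (16.9 to 25.5 and 2.42 to 14.2 CPM; log2 fold change -1.71 ± 0.38 (SE), adjusted p = 0.0142) and the glucuronosyltransferase gene ugt1a6 (33.5 to 53.1 and 5.505 to 26.7 CPM; log2 fold change -1.69 ± 0.37 (SE), adjusted p = 0.0135) fell in every treated library below every vehicle library. The largest fall of all called genes was that of the uncharacterised zgc:92590, at 8.89 to 22.9 CPM in vehicle and 0.406 to 1.93 CPM in treated libraries (log2 fold change -3.82 ± 0.39 (SE), adjusted p = 0.000152).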
